A study of Homo sapiens with 18 samples.

Results

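The footprints of FLAG-tagged ribosomes were compared between definitive endoderm and undifferentiated human pluripotent stem cells (hPSC) across all genes of the deposited table. Members were chosen by assay and group. They are the 2 immunoprecipitated ribosome-footprint (IP-Ribo) libraries of endoderm (DE) and the 2 of hPSC, 4 of the 18 libraries of the series. All cells derive from the human embryonic stem cell line MEL1, in which GFP reports on the insulin gene, and were kept as hPSC on Matrigel in mTeSR+ medium. Both groups are labelled with the genotype RPL22-FLAG, so the tagged ribosomal protein is present in the controls as well, and the precipitation used an anti-FLAG (M2) antibody. The endoderm libraries carry the cell type label of definitive endoderm, while their source label still reads undifferentiated embryonic stem cells. The agents and days of differentiation are not given in the sources used here, and no cell sort is described for these groups. Labels also do not say whether replicates came from separate cultures, so p-values measure the spread between these libraries, which may be technical.

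Definitive endoderm is the germ layer that later forms the gut tube, liver and pancreas. It arises from pluripotent cells under Nodal/Activin and WNT signals, which switch on EOMES, SOX17, FOXA2 and GATA factors while the pluripotency network is shut down. RPL22 is a protein of the large ribosomal subunit. A tag on it allows ribosomes to be pulled down with the mRNA they translate, and RNase I trims that mRNA to the stretch each ribosome protects. A gene's footprint count therefore follows both how much mRNA there is and how many ribosomes sit on it. In bulk libraries of this kind, fewer cells of a type and fewer footprints per cell cannot be told apart.

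Total estimated counts (in 1e6) were 20.57 and 23.11 in hPSC replicates 1 and 2, and 6.61 and 19.86 in DE replicates 1 and 2, so DE replicate 1 was the shallowest. CPM (counts scaled to 1e6 per library) below are scaled by TMM factors, and a gene was called when its Benjamini-Hochberg adjusted p in edgeR's quasi-likelihood test was under 0.05. That fit also held the 2 IP-Ribo libraries of GFP-positive stem-cell-derived beta cells (sBC), labelled with a lentivirus RPL22-FLAG genotype, which added to the estimate of spread. Scaled by library totals, the log2 fold changes of all genes lay 0.52 higher in the median, and 2933 genes rose against 804 that fell, where TMM gave 1566 and 2007. By library totals 18.3% of all genes thus rose and 5.02% fell, the shares to set beside each list's counts by library totals below. Small changes of whole gene families, below about that size, therefore depend on the scaling.

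Of 16018 genes tested, 3573 (22.3%) were called, 1566 (9.78%) higher and 2007 (12.5%) lower in endoderm. The rises were larger, with a median size of 2.12 on the log2 scale against 1.44 for the falls. At least 16-fold changes were seen for 294 rises and 205 falls. None of the called genes overlapped between the 2 groups, but 65.3% of all genes tested also had groups that did not overlap. The calls leaned on the hPSC libraries: without hPSC replicate 1 there were 549 rises and 548 falls, without hPSC replicate 2 there were 598 and 719, and without DE replicate 1 there were 904 and 984. Leaving out sBC replicate 2, which is in neither group, left 1220 falls.

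**Figure D1:**
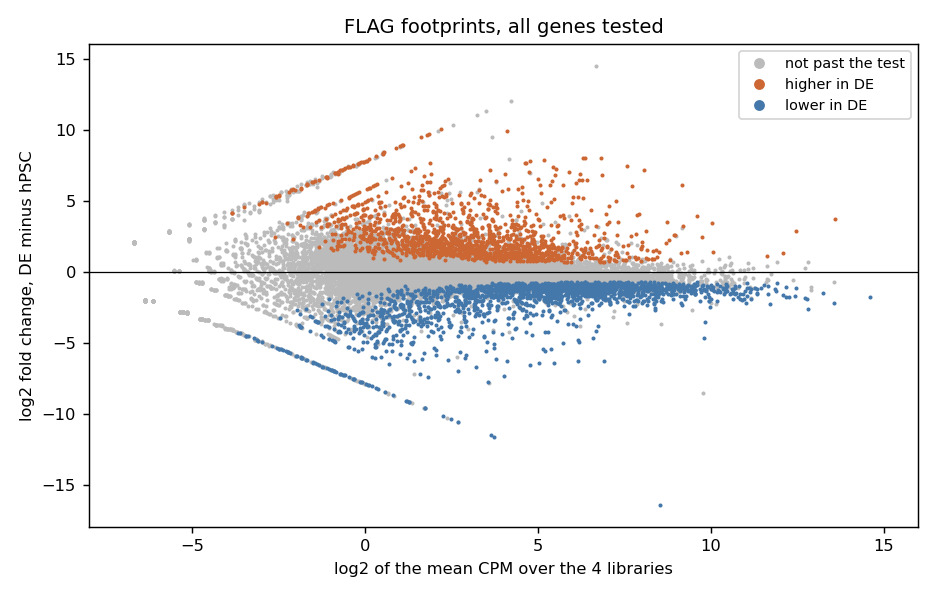
Each point is a gene; the x axis is the log2 of its mean CPM over the 4 libraries and the y axis its log2 fold change, DE minus hPSC, with called genes in colour and the 160 tested genes that had no count in the 4 libraries not drawn. Rises reach far from 0 at middle levels, while at high levels a broad band of genes lies just under 0.

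Several single genes had very large rises. NPPB, which encodes a natriuretic peptide, held 1 count in the 2 hPSC libraries together and 47.6 and 21.4 CPM in DE, a ratio of 1070 with an exact 95% counting interval of 192 to 42500 (adjusted p = 0.002). ANKRD1, a nuclear cofactor of muscle cells and a common target of YAP, was at 0.735 and 0.482 CPM in hPSC and at 199 and 113 in DE (8.0 ± 0.45, adjusted p = 0.000261). MYL7, the atrial myosin light chain, went from 0.791 and 0.386 to 93.6 and 87.8 CPM (7.27 ± 0.40). For these genes both DE libraries stood far above both hPSC libraries. PDZK1, a scaffold protein of epithelial transporters, had 0.509 and 0.482 CPM in hPSC and 87.1 and 85.7 in DE (7.42 ± 0.27). FOXQ1, a forkhead factor, rose by 7.79 ± 0.88 on the log2 scale, but its adjusted p of 0.00375 became 0.0595 without hPSC replicate 1 and 0.0581 without hPSC replicate 2.

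Endoderm transcription factors rose almost throughout. Of 19 factors listed, 18 were tested, 16 rose and 1 fell, with a median log2 fold change of 5.90 against -0.07 over all genes. With each of the 6 libraries left out in turn, 15 of the 16 stayed called. GATA6 measured 1.02 and 0.675 CPM in hPSC and 268 and 182 in DE (8.05 ± 0.39, adjusted p = 0.000147). GSC, an organizer homeobox factor, measured 0.678 and 0.578 CPM against 218 and 109 (8.01 ± 0.50). Between the DE libraries GSC varied 2-fold, which is small beside the gap to hPSC. GATA4, the partner of GATA6 in endoderm and heart, measured 0.283 and 0.289 CPM against 84.1 and 58.2 (7.91 ± 0.42). The T-box factor EOMES, which opens the endoderm programme downstream of Nodal, measured 1.36 and 1.11 CPM against 145 and 151 (6.90 ± 0.47). MIXL1, a homeobox factor of the primitive streak, measured 1.19 and 0.675 CPM against 71.1 and 59 (6.13 ± 0.36). Every one of these was near 1 CPM or below in both hPSC libraries.

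SOX17, which sets endoderm identity, measured 1.07 and 0.723 CPM in hPSC and 140 and 96.5 in DE (7.04 ± 0.39, adjusted p = 0.000373). FOXA2, the pioneer factor of the foregut, changed less, from 1.47 and 1.3 CPM to 83.5 and 48.7 (5.57 ± 0.37). HNF4A, a factor usually tied to liver and gut, was already among the rises and measured 0.396 and 0.386 CPM against 57 and 48.5 (7.05 ± 0.30). HHEX and LHX1, factors of the anterior endoderm and organizer, rose by 5.82 ± 0.44 and 5.99 ± 0.41 on the log2 scale. The exceptions were NFE2L3, a stress-linked bZIP factor that fell from 22 and 12.4 to 2.24 and 2.07 CPM (-3.0 ± 0.48), and SIX3, which did not pass the test (-1.89, adjusted p = 0.199).

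**Figure D2:**
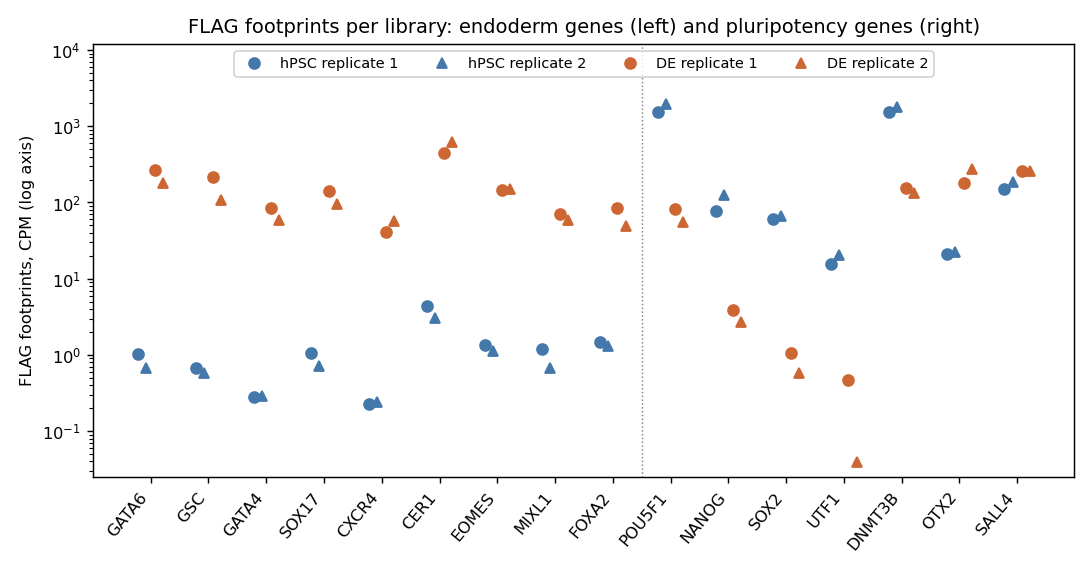
FLAG footprints per library in CPM on a log axis, for 9 endoderm genes left of the dotted line and 7 pluripotency genes right of it; circles are replicate 1, triangles replicate 2, blue hPSC and orange DE. The endoderm genes sit below 5 CPM in hPSC and above 40 in DE, POU5F1 to DNMT3B run the other way, and OTX2 and SALL4 are higher in the DE libraries.

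Surface and secreted proteins of endoderm followed. Of 22 tested among 25, 19 rose and 1 fell (median 4.36). The rises numbered 14 without hPSC replicate 2 and stayed at 16 or more with any other library left out. CXCR4, the chemokine receptor used to sort endoderm, measured 0.226 and 0.241 CPM in hPSC and 41.6 and 56.9 in DE (7.67 ± 0.35, adjusted p = 0.000147). CER1, a secreted inhibitor of Nodal, BMP and WNT, measured 4.35 and 3.04 CPM against 441 and 620 (7.17 ± 0.34). FGF17, a ligand of the primitive streak, measured 0.396 and 0.0964 CPM against 46.5 and 53.5 (7.67 ± 0.53). All 3 were close to 0 in hPSC beside their DE level. The one fall was APELA, a peptide hormone of pluripotent cells and early endoderm, from 7.91 and 9.16 to 0.471 and 0.312 CPM (-4.49 ± 0.53).

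Nodal and BMP genes rose where they were called. Nodal signals through receptor kinases to SMAD2 and SMAD3 and induces its own ligand and its inhibitors. Of 39 genes tested, 13 rose and 0 fell (median 0.69), and 10 of the 13 stayed called with each library left out; scaled by library totals, 21 rose against a background of 18.3%. Among the ligands, 4 of 9 rose. NODAL itself measured 6.1 and 9.93 CPM in hPSC and 59 and 41.1 in DE (2.64 ± 0.35, adjusted p = 0.005), BMP2 0.678 and 0.675 against 13.1 and 13.8 (4.30 ± 0.44), and BMP4 0.622 and 0.675 against 4.47 and 4.95 (2.85 ± 0.41). Among 9 receptors, BMPR2 alone rose, from 0.848 and 0.578 to 4.36 and 6.16 CPM (2.88 ± 0.42), and of the 6 SMADs and partners 0 passed edgeR's test (3 had an unadjusted p under 0.05); DESeq2 called 3 receptors and 3 SMADs and partners. Differences between roles were not tested. Of 9 inhibitors 4 rose, with the largest values of the pathway. LEFTY2 measured 2.66 and 1.54 CPM against 467 and 288 (7.49 ± 0.48) and LEFTY1 2.43 and 1.49 against 305 and 149 (6.85 ± 0.67). The LEFTY genes are near-identical copies whose counts the authors' counting may have shared, and their summed level rose by 7.22 on the log2 scale. Of 6 targets 4 rose. Some of these genes, among them LEFTY1, LEFTY2 and EOMES, also belong to the endoderm lists above, so their rises are counted there too.

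WNT genes were mixed, with 8 rises and 2 falls among 31 tested (median 0.73); the rises numbered 5 without hPSC replicate 1 and 4 without hPSC replicate 2. By role, 4 of 10 receptors, 3 of 12 inhibitors and 1 of 7 effectors or targets rose, and 1 receptor and 1 inhibitor fell. Some of the rises, among them FZD5 and SHISA2, were already counted in the endoderm surface and secreted list. FZD5, a Frizzled receptor, measured 1.24 and 1.4 CPM in hPSC and 59.8 and 32.5 in DE (5.11 ± 0.45, adjusted p = 0.000817). ROR2, the WNT5A co-receptor, measured 1.3 and 1.06 CPM against 18.7 and 20.8 (4.06 ± 0.36). LGR5, the R-spondin receptor, was at 0.113 and 0.193 CPM against 10 and 6.66 (5.67 ± 0.94), with an adjusted p of 0.0761 without hPSC replicate 1 and 0.0592 without hPSC replicate 2. The inhibitors went both ways. SFRP2, a secreted one, fell from 39.7 and 28.5 to 0.353 and 0.468 CPM (-6.28 ± 0.58). SHISA2, which is not secreted but retains Frizzled and FGF receptors in the endoplasmic reticulum, rose by 3.70 ± 0.49 on the log2 scale. The target SP5 measured 0.283 and 0.289 CPM against 10.2 and 5.49 (4.73 ± 0.66), and CTNNB1, which encodes beta-catenin, did not pass the test at 1340 and 1150 CPM against 1440 and 1200 (0.09 ± 0.22).

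FGF signalling changed its ligand. FGF2, the factor that sustains human pluripotent cells, fell from 27.9 and 31.1 to 2 and 1.01 CPM (-4.37 ± 0.48), the reverse of FGF17. Of 19 pathway genes tested, 7 rose and 2 fell (median 0.35), and 4 of the rises stayed called with each library left out, the number found without hPSC replicate 1. DUSP4, a phosphatase that switches off ERK, measured 1.58 and 1.4 CPM against 121 and 86.2 (6.11 ± 0.50). Its relative DUSP6 did not pass the test (-0.84 ± 0.26, adjusted p = 0.0559). The early ERK targets IER3 and EGR1 rose, IER3 by 4.57 ± 0.58 and EGR1 by 4.10 ± 0.58 on the log2 scale.

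Adhesion genes showed a switch of cadherins. CDH1 (E-cadherin) measured 16.4 and 15.2 CPM in hPSC and 4.12 and 3.66 in DE (-2.03 ± 0.22, adjusted p = 0.00167), and CDH2 (N-cadherin) 9.78 and 4.77 against 84.7 and 117 (3.79 ± 0.40, adjusted p = 0.00159). The cadherin groups did not overlap in either direction. The integrin ITGA6, a laminin receptor, fell by 2.05 on the log2 scale (SE 0.34). Of 25 adhesion, transition and cytoskeleton genes, 10 rose and 4 fell (median 0.59); without hPSC replicate 1 the rises numbered 5, and without hPSC replicate 2 there were 4. The factors of epithelial-mesenchymal transition did not move as one: SNAI1 was called higher and ZEB1 and ZEB2 lower, each losing the call with hPSC replicate 1 left out (adjusted p = 0.126, 0.334 and 0.114).

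The keratin genes KRT8 and KRT19 and many matrix genes rose. KRT7 fell, from 7.52 and 16.9 CPM in hPSC to 0.824 and 0.39 in DE (-4.49). KRT8 measured 1140 and 1580 CPM in hPSC and 13900 and 6040 in DE (2.87 ± 0.42), and KRT19, a keratin of simple epithelia, 95.2 and 129 against 1370 and 738 (3.24 ± 0.35). TAGLN, an actin-binding protein of contractile cells, went from 55.8 and 78.8 to 880 and 669 CPM (3.52 ± 0.34). The intermediate filament gene VIM did not pass the test, at 186 and 162 CPM against 272 and 237 (0.55 ± 0.22). The keratin values of the DE libraries differed from each other about 2-fold, DE replicate 1 being the higher. Of 31 extracellular matrix genes, 16 rose and 2 fell (median 1.32), with 9 rises without hPSC replicate 1 and 8 without hPSC replicate 2. Among 14 basement membrane genes 9 rose. The collagen IV chains COL4A1 and COL4A2, which lie head to head on one promoter, measured 3.11 and 2.51 against 34.1 and 26.2 CPM (3.42 ± 0.46) and 2.88 and 1.49 against 23.1 and 14.1 (3.08 ± 0.43). HSPG2 (perlecan) rose by 3.07 ± 0.45 and LAMB1 by 1.90 ± 0.27 on the log2 scale, and fibronectin (FN1) stood at 10.4 and 7.09 CPM against 91.3 and 77.8 (3.27 ± 0.29).

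Large falls of single genes included a noncoding transcript and a processed copy of a gene with an abundant mRNA. FOXD3-AS1, a noncoding transcript beside the pluripotency factor FOXD3, measured 49.2 and 58.2 CPM in hPSC and 0.589 and 0.546 in DE (-6.56). CNMD (chondromodulin) measured 26.7 and 27.7 CPM against 0.471 and 0.351 (-6.09), and VSNL1, a neuronal calcium sensor, 77.2 and 66.6 against 1.65 and 1.48 (-5.53 ± 0.27). Replicates of these genes lay close together in both groups. YBX1P1, a processed copy of the RNA-binding protein gene YBX1, stood at 1060 and 400 CPM in hPSC and had no count in DE, which with 3 counts taken for the DE pair is at least 8030-fold lower. Reads can be assigned to either of such copies: YBX1 itself was at 2400 and 2380 CPM against 1150 and 1090 (-1.09 as a ratio of mean CPM), and the pair summed gave -1.47. In total footprints the hPSC replicates differed for YBX1P1, at 0 and 191 CPM, against 0.631 and 0.555 in DE.

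Pluripotency genes fell, with exceptions. Of 31 tested, 21 fell and 4 rose (median -2.0), and 14 of the 21 stayed called with each library left out; by library totals 17 fell, against 5.02% of all genes. POU5F1 measured 1520 and 1930 CPM in hPSC and 82.7 and 55.8 in DE (-4.64 ± 0.49, adjusted p = 0.00199). SOX2 measured 59.8 and 67 CPM against 1.06 and 0.585 (-6.39 ± 0.61), and PRDM14, a repressor of differentiation, 64.4 and 72.4 against 2.12 and 1.21 (-5.44 ± 0.36). UTF1, a chromatin protein of pluripotent cells, was at 15.6 and 20.5 CPM against 0.471 and 0.039 (-6.65 ± 0.86), with an adjusted p of 0.0516 without hPSC replicate 1 and 0.0538 without hPSC replicate 2. SOX2 and PRDM14 came close to 0 in DE, while POU5F1 did not. NANOG was at 76.8 and 126 CPM against 3.89 and 2.69 (-4.98 ± 0.39); summed with its copy NANOGP1, with which it can share reads, the log2 ratio was -5.73. All 8 RNA-binding and chromatin proteins of the list fell, among them DPPA4 (332 and 370 against 48.2 and 45 CPM, -2.92 ± 0.23) and L1TD1 (2010 and 1410 against 217 and 409 CPM, -2.45 ± 0.38).

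Among the exceptions was the homeobox factor OTX2, at 21.2 and 22.7 CPM in hPSC and 182 and 278 in DE (3.39 ± 0.32, adjusted p = 0.00102). ZIC2 and PODXL were also called higher, in 3 and 2 of the 6 fits that left out 1 library, with adjusted p of 0.222 and 0.124 without hPSC replicate 1. SALL4 was higher in both DE libraries, 261 and 261 CPM against 152 and 183, without passing the test (0.64 ± 0.21, adjusted p = 0.0697). The surface marker THY1 fell by 4.02 on the log2 scale (SE 0.48).

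DNA methylation genes differed in direction by enzyme. DNMT3B, the de novo methyltransferase of pluripotent cells, fell from 1550 and 1790 to 154 and 135 CPM (-3.53 ± 0.45, adjusted p = 0.00321). DNMT3L, its catalytically inactive partner, was at 0.283 and 0 CPM against 10.7 and 6.7 (5.93 ± 1.07, adjusted p = 0.0156), with an adjusted p of 0.0882 without DE replicate 1 and 0.0557 without DE replicate 2. TET2, which oxidises methylcytosine, rose from 0.904 and 0.386 to 4.59 and 5.03 CPM (2.90 ± 0.46). The maintenance enzyme DNMT1 fell by 1.19 on the log2 scale (SE 0.20), with an adjusted p of 0.0583 without hPSC replicate 2, and DNMT3A by 0.91, in 3 of the 6 left-out fits. TET1 (-1.23), TET3 (0.91) and UHRF1 (-0.68) did not pass the test, so 2 of 8 rose and 3 fell. Fitted on the 4 libraries compared, without sBC, 2 rose and 4 fell.

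The protein synthesis machinery was lower in endoderm under TMM. Most of its mRNAs carry a terminal oligopyrimidine (TOP) motif, a C followed by a run of C and T at the very 5′ end, through which mTOR signalling controls their translation. Of 79 ribosomal protein genes, 43 fell and 0 rose (median -1.05), 20 of 32 in the small and 23 of 47 in the large subunit. Their summed level was 135000 and 141000 CPM in hPSC and 65600 and 64700 in DE. As a share of raw counts, which needs no TMM factor, they took 11.6% and 12.6% against 8.43% and 8.36%. Scaled by library totals, 15 of 79 fell (median -0.50). The number of falls was 8 without hPSC replicate 1, 12 without hPSC replicate 2 and 21 without DE replicate 1, with medians between -1.12 and -0.91 over the 6 left-out libraries.

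RPS12 measured 1430 and 1200 CPM in hPSC and 263 and 379 in DE (-2.03 ± 0.26, adjusted p = 0.003) and stayed called with each library left out. RPL34 was at 3550 and 2700 CPM against 700 and 985 (-1.89 ± 0.35), with an adjusted p of 0.0615 without hPSC replicate 1 and 0.0623 without DE replicate 1. RPL21 was at 88 and 61.7 CPM against 14.5 and 26.2 (-1.87 ± 0.35), with an adjusted p of 0.0668 without hPSC replicate 1. Each subunit thus held members whose DE libraries lay far below the hPSC libraries. RPL27A (1880 and 2600 against 2460 and 1060 CPM) did not pass the test, and its groups overlapped. Ribosomal protein genes have many processed copies, so single values are less certain than the summed level.

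Outside the ribosome, 11 of 16 other known TOP mRNAs fell (median -1.04; 4 of 16 by library totals, and 3 or 4 without hPSC replicate 1 or 2). EEF1A1, the elongation factor that brings tRNA to the ribosome, measured 41400 and 34200 CPM in hPSC and 10400 and 12400 in DE (-1.73 ± 0.25, adjusted p = 0.00473). EEF1B2, its exchange factor, measured 3310 and 2480 CPM against 557 and 985 (-1.91 ± 0.32), and the nucleolar chaperone NPM1 22200 and 17500 against 3470 and 5340 (-2.17 ± 0.38). NAP1L1, a histone chaperone, fell by 1.90 on the log2 scale (SE 0.36), with an adjusted p of 0.0655 without hPSC replicate 1. The first 15 bases after the RefSeq start, with 15 before it (GRCh38.p14), are shown for the genes just named, to set their start sites side by side. Capitals mark a TOP-like run, a C followed by at least 4 C or T that begins within 5 bases of the start:

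RPS12 (chr6:132814554-132814583, plus strand): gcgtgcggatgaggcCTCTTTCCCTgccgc
RPL34 (chr4:108620561-108620590, plus strand): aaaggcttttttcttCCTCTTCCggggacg
RPL21 (chr13:27251543-27251572, plus strand): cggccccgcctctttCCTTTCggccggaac
RPL27A (chr11:8682777-8682806, plus strand): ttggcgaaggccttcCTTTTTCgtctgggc
RPL22 (chr1:6199581-6199610, minus strand): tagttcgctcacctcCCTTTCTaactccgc
EEF1A1 (chr6:73521018-73521047, minus strand): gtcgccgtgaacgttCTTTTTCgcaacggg
NPM1 (chr5:171387834-171387863, plus strand): cggggagcctgcgtcCTTTCCCTggtgtga
NAP1L1 (chr12:76084671-76084700, minus strand): ggcgggctcttgggtCTTTTTTagcgccat
EEF1B2 (chr2:206159594-206159623, plus strand): gccggaagtggccccagcctcgaggccggg

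A run was found at the annotated start of 81.0% of the 63 ribosomal protein genes with a matched window, against 22.8% of 11093 protein-coding genes tested and 21.1% of all 27305 start sites in the table. EEF1B2 has none in this window, and RPL27A has one although it did not pass the test. With ribosomal protein genes and the other known TOP mRNAs left out, the run by itself did not separate genes by their change. Of 2471 such genes with a run, 253 rose and 315 fell (median -0.13). Of 8548 without it, 871 rose and 1149 fell (median -0.07). Of 11 other known TOP mRNAs with a matched window, 7 fell and 0 rose (median -1.03). Among ribosomal protein genes, 27 of 51 with a run and 7 of 12 without one fell (medians -0.93 and -1.12).

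RPL22, which carries the tag, measured 1800 and 1660 CPM in hPSC and 927 and 1270 in DE and did not pass the test (-0.66 ± 0.34, adjusted p = 0.203). Footprints on the tagged and the untagged copy cannot be told apart in these counts. Its paralog RPL22L1, which can replace it in the ribosome, fell from 69.7 and 69.1 to 8.6 and 11.8 CPM (-2.75 ± 0.39, adjusted p = 0.00429) and stayed called with each library left out. It was the one paralog of a ribosomal protein to fall among 6 tested (median -0.41, or 0.15 by library totals).

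Translation factors and ribosome biogenesis went the same way. Of 45 translation factors, 24 fell and 1 rose (median -0.92), with 10 of 13 eIF3 subunits lower. By library totals 5 fell and 3 rose, where 5.02% of all genes fell and 18.3% rose. The falls numbered 4 without hPSC replicate 1, 4 without hPSC replicate 2, 11 without DE replicate 1 and 9 without sBC replicate 2. EEF2, which moves the ribosome along the mRNA, did not pass the test, at 1390 and 1780 CPM against 1350 and 935 (-0.47 ± 0.27). The one rise was EIF4EBP1, a repressor of cap-dependent translation, called by 0.86 on the log2 scale, and it lost the call without hPSC replicate 1 (adjusted p = 0.285). In ribosome biogenesis, the making of ribosomes in the nucleolus, 26 of 34 genes fell (median -1.38), and 16 by library totals (median -0.83). Its falls numbered 12 without hPSC replicate 1 and 14 without hPSC replicate 2. Nucleolin (NCL) measured 5860 and 5150 CPM against 834 and 1470 (-2.26 ± 0.32), and WDR12, a factor of large subunit assembly, 450 and 287 against 74.8 and 115 (-1.96 ± 0.31).

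**Figure D3:**
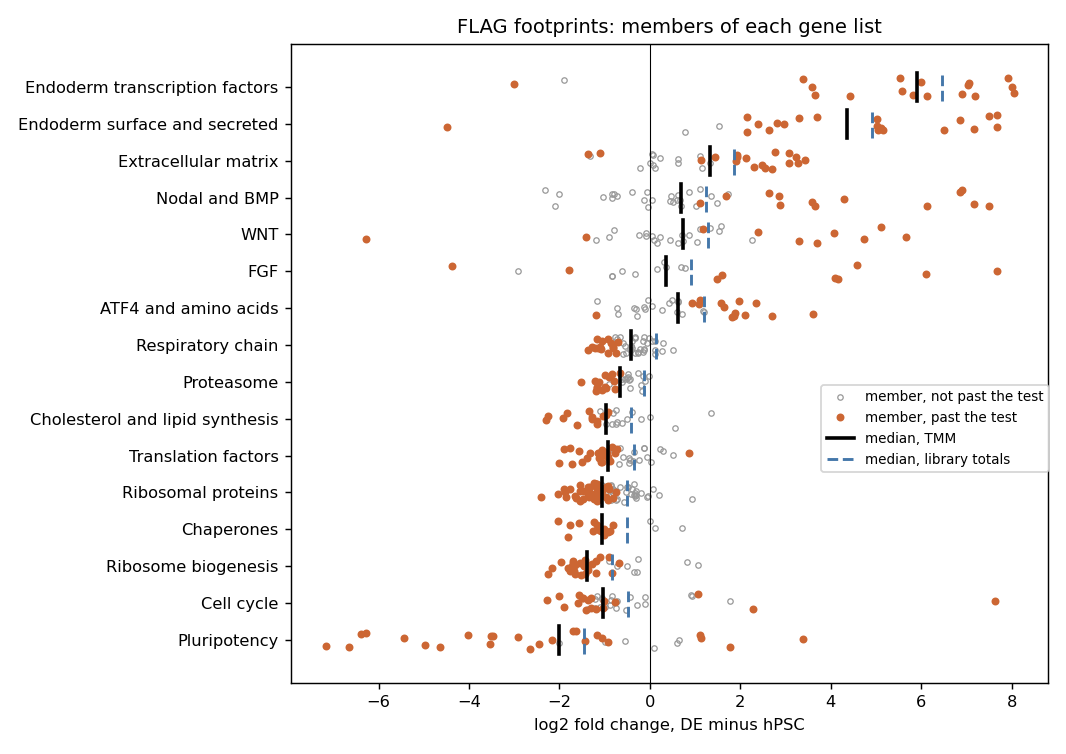
Log2 fold changes (DE minus hPSC) in FLAG footprints for the tested members of 16 gene lists, filled where past the test; black bars are medians under TMM and dashed blue bars medians under library totals. Endoderm lists lie far right and pluripotency left under both scalings, while respiratory chain genes change the side of 0 with the scaling.

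Chaperone, proteasome and respiratory chain genes were lower under TMM, and these counts moved with the scaling. Over all genes 5.02% fell and 18.3% rose by library totals. Of 18 chaperone genes 14 fell (median -1.06), but 4 by library totals, 4 without hPSC replicate 1 or 2, 6 without sBC replicate 2 and 7 without DE replicate 1. HSP90AB1 measured 11700 and 9340 CPM in hPSC and 2570 and 3480 in DE (-1.80 ± 0.27), and the mitochondrial chaperonin HSPD1 7670 and 7340 against 1990 and 2450 (-1.76 ± 0.25). Its co-chaperonin HSPE1 went from 1960 and 1730 to 364 and 536 CPM (-2.03 ± 0.35), whereas HSPA8, the constitutive cytosolic chaperone, did not pass the test at 10400 and 9890 against 4450 and 5520 (-1.02 ± 0.40, adjusted p = 0.109). All 4 mitochondrial chaperones fell, 3 of them with each library left out. Of 31 proteasome subunits 15 fell (median -0.67), 1 by library totals, 1 and 2 without hPSC replicates 1 and 2, 5 without DE replicate 1 and 3 and 7 without sBC replicates 2 and 1. PSMA4, a core subunit, stayed called with each library left out (528 and 433 against 151 and 181 CPM, -1.53 ± 0.23). Of 49 nuclear respiratory chain genes 15 fell (median -0.42), while by library totals 1 rose and 0 fell (median 0.13), and 0 of the 15 stayed called with each library left out: the falls numbered 2 and 1 without hPSC replicates 1 and 2, 3 without DE replicate 1, and 6 and 4 without sBC replicates 1 and 2. The 11 mitochondrially encoded genes tested gave 0 calls by edgeR or DESeq2, and 0 at an unadjusted p under 0.05 (median 0.57).

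Cell cycle genes were called lower more often than higher. Of 40 tested, 15 fell and 3 rose (median -1.03; 9 and 5 by library totals), with 9 of 16 replication genes (median -1.18) and 4 of 15 mitosis genes (median -1.11) lower. In a fit of the 4 libraries alone, 9 genes of each of these groups fell. The falls numbered 6 without hPSC replicate 1, 7 without hPSC replicate 2 and 8 without DE replicate 1. GINS2, a subunit of the replicative helicase, measured 274 and 179 CPM against 41.2 and 52.3 (-2.27 ± 0.38). TOP2A, the topoisomerase of dividing cells, was at 612 and 481 CPM against 185 and 297 without passing the test (-1.18 ± 0.53). The cyclin-dependent kinase inhibitor CDKN1A (p21) rose from 0.735 and 1.64 to 7.07 and 4.95 CPM (2.29 ± 0.40). The changes of GINS2 and CDKN1A stayed called with each library left out.

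In glycolysis calls went both ways: 7 of 22 genes fell and 4 rose (median -0.67), with 1 rise without hPSC replicate 1, and 2 rises and 4 falls without hPSC replicate 2. The glucose transporter SLC2A3 rose from 67.4 and 53.8 to 397 and 304 CPM (2.53 ± 0.34), while its relative SLC2A1 fell by 1.94 on the log2 scale (SE 0.29). Hexokinase HK1 fell from 175 and 216 to 53.2 and 48.2 CPM (-1.95 ± 0.25), and PKM, the last enzyme of the pathway, was called higher (1.32 ± 0.24) with an adjusted p of 0.0572 without hPSC replicate 1 and 0.103 without hPSC replicate 2. In cholesterol synthesis and uptake the calls went one way: 13 of 27 fell and 0 rose (median -0.97; 4 fell by library totals, 5 without hPSC replicate 1, 6 without hPSC replicate 2 and 8 without sBC replicate 2 or either DE replicate). FDFT1 (squalene synthase) measured 471 and 467 CPM against 93.8 and 97.5 (-2.29 ± 0.21, adjusted p = 0.00102), and HMGCS1, at the entry of the pathway, 579 and 510 against 98.2 and 129 (-2.26 ± 0.23). For both enzymes the libraries of a group lay close together.

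With all libraries fitted, stress response genes were called higher, while medians of the amino acid genes lay near 0. ATF4 is the transcription factor that answers amino acid shortage and unfolded proteins. Of 33 genes it is known to control or that supply amino acids, 13 rose and 1 fell (median 0.63), 10 of them among 13 stress response genes (median 1.81). Most of these 10 calls were lost in at least 1 fit that left out 1 library, while the median of the stress response genes ranged from 1.36 to 1.95. Of 11 amino acid synthesis genes 1 rose (median 0.04), and of 9 amino acid transporters 2 rose and 1 fell (median -0.14). The rises numbered 3 without hPSC replicate 1, 5 without hPSC replicate 2 and 7 without DE replicate 1. SLC7A5, the leucine transporter, measured 2.88 and 4.39 CPM in hPSC and 58.2 and 31 in DE (3.60 ± 0.44), and its partner chain SLC3A2 rose by 1.64 ± 0.25 on the log2 scale. DDIT4, an inhibitor of mTOR signalling, measured 5.71 and 5.93 CPM against 42.3 and 34.1 (2.71 ± 0.34). ATF4 itself was at 103 and 97.7 CPM against 208 and 220 (1.09 ± 0.20), with an adjusted p of 0.0838 without hPSC replicate 1 and 0.0882 without hPSC replicate 2. Among 23 cytosolic tRNA synthetase genes 9 fell and 1 rose (median -0.56; 3 fell and 4 rose by library totals), with 3 falls without hPSC replicate 1 or 2 and 4 without DE replicate 1 or sBC replicate 2. EPRS1 fell from 413 and 331 to 61.3 and 79.5 CPM (-2.40 ± 0.24), and the rise was WARS1, from 84.4 and 95.4 to 228 and 210 CPM (1.29 ± 0.21), with an adjusted p of 0.0794 without hPSC replicate 1.

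Polyamine genes were lower at synthesis. AMD1, which makes the aminopropyl donor, fell from 94.9 and 78.3 to 9.77 and 15.2 CPM (-2.78 ± 0.40), spermidine synthase SRM by 1.85 on the log2 scale (SE 0.27) and spermine synthase SMS by 1.11 (SE 0.24). The antizyme OAZ2 fell by 1.82 (SE 0.28) and the antizyme inhibitor AZIN1 by 1.23 (SE 0.22). Antizyme OAZ1 (1.59 ± 0.42) and the oxidases SMOX (2.23) and PAOX (1.27) were called higher, so 5 of 11 fell and 3 rose. AMD1, SRM and OAZ2 stayed called with each library left out; the 3 rises were lost without either hPSC replicate or without DE replicate 1, and SMS without either hPSC replicate, DE replicate 1 or sBC replicate 2. AZIN1 had an adjusted p of 0.0589 without hPSC replicate 1 and 0.0591 without hPSC replicate 2. ODC1, the first enzyme, did not pass the test (0.35), nor did SAT1 (0.04) and AZIN2 (3.99, adjusted p = 0.0605).

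Of 16 immediate early genes 8 rose and MYC fell (median 1.59); 4 of the 8 stayed called with each library left out, the number without hPSC replicate 1. MYC measured 37 and 42 CPM in hPSC and 7.18 and 5.34 in DE (-2.67 ± 0.34). BTG2, an antiproliferative cofactor, rose by 3.49 on the log2 scale.

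Markers of other cell types were examined in the same libraries. Of 11 mesoderm markers 5 were tested, 0 rose and KDR fell, and the summed level was 11.8 and 10.7 CPM in hPSC and 10 and 5.53 in DE; MSGN1 and FOXF1 had no count. Of 10 neuroectoderm markers 5 were tested, with PAX6 (3.78) and SOX10 (2.36) higher and NES, SOX3 and SIX6 lower. The 10 summed to 433 and 421 CPM in hPSC against 125 and 108 in DE. Nearly all of that sum was NES, at 423 and 411 CPM against 110 and 92.3. Of 10 trophoblast and amnion markers 7 were tested; GATA3 rose from 0.452 and 0.434 to 20.7 and 13.6 CPM and KRT7 and TFAP2C fell, at a summed 14.7 and 25.6 against 43 and 17.7. Among 12 markers of extraembryonic and later endoderm, APOA1 (5.44), APOA2 (4.55) and APOB (1.71) rose and AFP and SOX9 fell. The 12 summed to 7.29 and 7.81 CPM in hPSC against 47.9 and 34.8 in DE. Fitted on the 4 libraries compared, 5 of the 12 were tested, of which 2 rose and 2 fell. AFP had no count in DE, at least 21.0-fold lower with 3 counts taken for the DE pair. Of 9 blood and endothelium markers 3 were tested, with 0 calls by edgeR or DESeq2 and 0 at an unadjusted p under 0.05. KDR, SOX10, SOX3 and APOB lost the call without hPSC replicate 1, among other libraries (adjusted p = 0.0984, 0.103, 0.192 and 0.0777), and TFAP2C without hPSC replicate 2 (adjusted p = 0.0591). The part of such cells in the results above was not tested.

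Total footprints (Ribo) and RNA of the same 2 groups, 2 libraries each, allow the FLAG values to be set beside the unselected ones. In total footprints 34.1% of 15454 genes were called and in RNA 75.6% of 20634. With 1 hPSC library left out the total footprints gave 201 calls (without replicate 1) or 73 (without replicate 2) in place of 5276. The 3 assays measured different libraries of the same groups. Ribosomal protein genes fell for 51 of 79 in total footprints (16.9% of all genes fell) and for 66 of 79 in RNA (36.8% fell), with medians of -0.88 and -0.27 in these separately scaled fits. In the fits that test the difference between assays, the median difference of these 79 genes was 0.12 against total footprints, with 0 called by edgeR or DESeq2 and 4 at an unadjusted p under 0.05. Against RNA it was -0.41, with 0 called by edgeR's quasi-likelihood test, 23 at an unadjusted p under 0.05 and 22 called by DESeq2. Ribosome biogenesis had medians of -1.18 in total footprints and -0.96 in RNA, and median differences of 0.13 and 0.06, with 0 of 34 called by edgeR or DESeq2 (0 and 2 at an unadjusted p under 0.05). DE replicate 1 of the total footprints stood apart, with 40.5% of its counts on nuclear protein-coding genes against 76.0% to 81.7% in the other Ribo libraries of these groups and 84.1% to 90.4% in the 4 FLAG libraries.

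**Figure D4:**
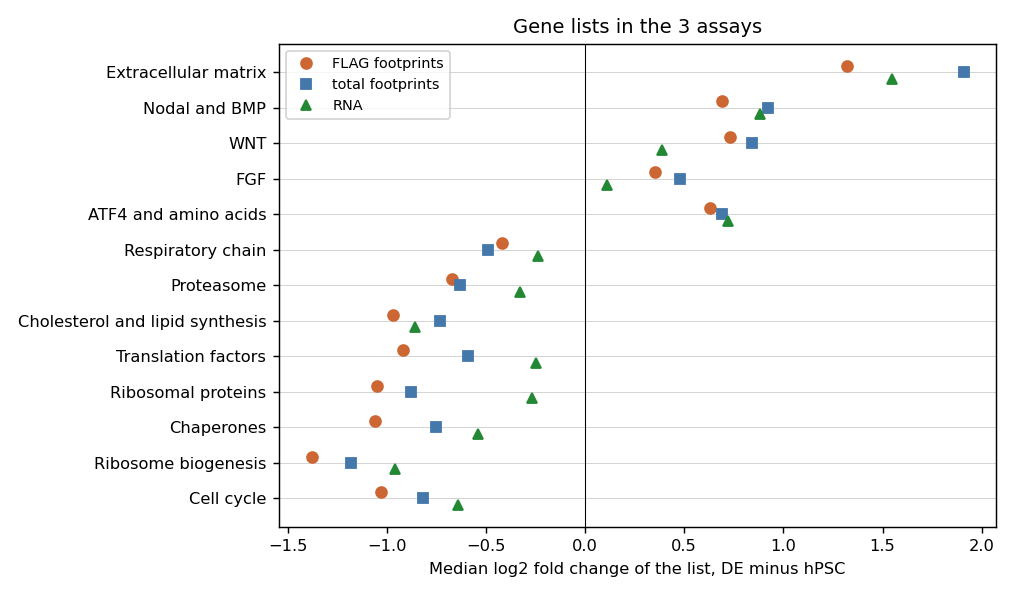
Median log2 fold change (DE minus hPSC) of 13 gene lists in FLAG footprints, total footprints and RNA, each scaled by TMM within its assay. The ribosomal protein median lies at -1.05 and -0.88 in the footprint assays and at -0.27 in RNA; in the fit across FLAG footprints and RNA the median difference was -0.41, with 0 of 79 genes past edgeR's test.

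The difference between assays was tested gene by gene. Between FLAG and total footprints, 2 of 16679 genes (0.012%) passed edgeR's quasi-likelihood interaction test, and 663 had an unadjusted p under 0.05; DESeq2 called 58. Both are processed pseudogenes, so reads shared with the parent gene can set their counts. WDR82P2 changed by -1.44 in FLAG footprints and by -9.48 in total footprints (difference 8.11 ± 0.59, adjusted p = 0.0278). Its total footprints held 87 and 102 counts in hPSC and no count in DE. The sizes -9.48 and 8.11 are therefore not fixed by these counts. EZRP1 fell by 4.57 in FLAG footprints and rose by 2.75 in total footprints (difference -7.16 ± 0.55, adjusted p = 0.0249). That rise rests on few counts, 5 and 4 in hPSC against 16 and 41 in DE. WDR82P2 was called in 0 and EZRP1 in 3 of the 8 fits that left out 1 library each, and those fits called between 0 genes and the 11 found without DE Ribo replicate 2.

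Between FLAG footprints and RNA, 25 of 19921 genes (0.125%) passed, 16 with a difference above 0 and 9 below; 2228 had an unadjusted p under 0.05 and DESeq2 called 459. SENP2, a SUMO protease, measured 40.6 and 41.4 CPM against 9.3 and 8.96 in FLAG footprints (-2.17 ± 0.23), while its RNA went from 86 and 94 to 78 and 75.1 (-0.23). Its footprints thus fell further than its RNA (difference -1.59 ± 0.22, adjusted p = 0.0398), and total footprints gave -1.94. VASH2, a tubulin carboxypeptidase, ran the other way: its RNA fell from 176 and 185 to 7.39 and 7.99 CPM (-4.55) while its FLAG footprints, at 29.4 and 25.7 against 5.06 and 4.13 CPM, did not pass the test (-2.60 ± 0.89, adjusted p = 0.104). Fitted without the sBC libraries, its adjusted p was 0.00399 by edgeR's quasi-likelihood test (-2.47). The difference between the assays was 2.29 ± 0.20 (adjusted p = 0.00465). WDR72, a protein of vesicle traffic, rose by 3.11 in FLAG and 3.26 in total footprints and by 1.51 in RNA (difference 1.95 ± 0.29, adjusted p = 0.0436).

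These differences were of unequal firmness. ENSG00000284554.1, an identifier that the name table pairs with no symbol, measured 4.35 and 4.68 CPM in hPSC and 14.8 and 28.9 in DE in FLAG footprints (2.28 ± 0.42), while its RNA went from 3.9 and 4.7 to 0.322 and 0.19 CPM (-4.06 ± 0.23; difference 6.69 ± 0.49, adjusted p = 0.00242). Over the 12 fits that left out 1 library each, EZRP1 and ENSG00000284554.1 were called in 12, VASH2 in 9, and SENP2 and WDR72 in 3 each. PABIR3 rose by 3.04 in RNA and stood at 0.32 in FLAG footprints (difference -2.37 ± 0.30, 5 of 12 fits). JAML (-3.26 ± 0.49, 4 of 12) and the fusion pseudogene PIPSL (-4.16, 6 of 12) also lay below 0. Their RNA values rest on few counts. JAML had 10 and 11 RNA counts in hPSC and 40 and 44 in DE, and PIPSL 1 and 3 against 26 and 33. EZRP1 also had few, 9 and 18 RNA counts in hPSC against 75 and 50 in DE. Above 0 stood the small nuclear RNA copy RNVU1-22 (5.40, 5 of 12) and the small nucleolar RNA SNORA74A (2.86, 4 of 12). Without DE IP-Ribo replicate 2, 660 genes were called in place of 25, and without any one of hPSC RNA replicate 2 and the DE RNA replicates there were 2.

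**Figure D5:**
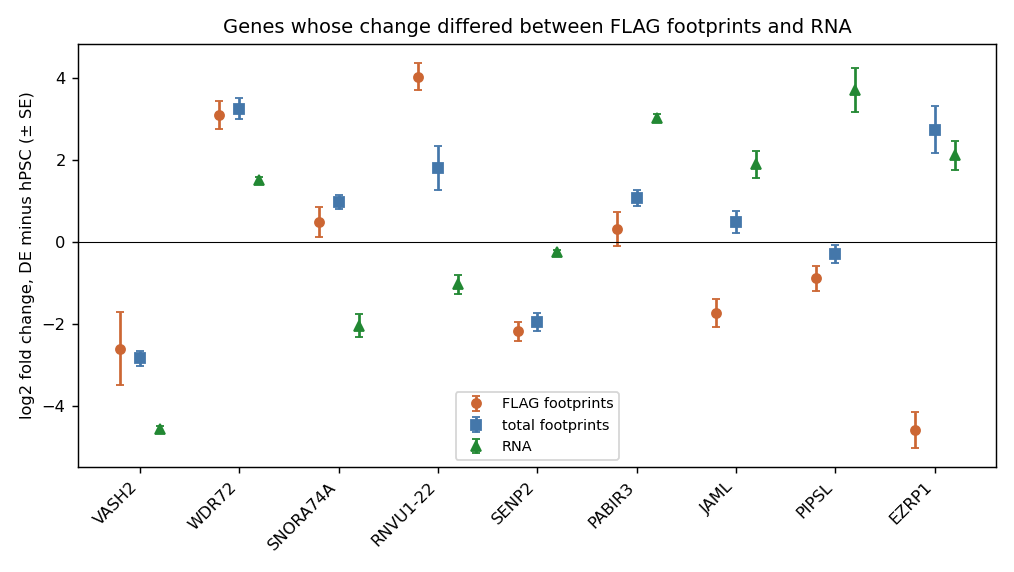
Log2 fold changes (DE minus hPSC, ± SE) in FLAG footprints, total footprints and RNA for 9 genes whose change differed between FLAG footprints and RNA. For VASH2, WDR72 and SENP2 the FLAG and total footprint values lie near each other and away from RNA.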

How the data were processed

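The authors deposited 1 table of estimated counts for 57808 gene IDs in 18 libraries (9 groups of 2); 16.8% to 31.3% of the values per library are not whole numbers. Per the submitters' processing notes, Salmon, Bowtie, cutadapt, UMI-tools and DESeq2 were used with GRCh38; versions, parameters, strand settings and any use of molecular identifiers in counting are not given in the sources used here. Counting of footprints over whole genes and shared reads between near-identical copies can move single values. IDs were matched to symbols for 98.7% of rows.

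Counts were rounded and tested with edgeR 4.0.16 (R 4.3.3, limma 3.58.1; filterByExpr, TMM, robust quasi-likelihood F test), with Benjamini-Hochberg adjustment over all genes tested and a threshold of 0.05. The FLAG comparison was fitted on 6 libraries (hPSC, DE and GFP-positive sBC IP-Ribo), total footprints and RNA on 4 libraries each, and differences between assays as interactions on 8 or 12 libraries. SE is the log2 fold change divided by the square root of F. The scripts were tested on simulated data. For fold bounds in FLAG footprints, a group without counts was set to a floor of 3 counts over the group. Floors and intervals cover counting error only.

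The members and gene lists were chosen with earlier results of these data known. Genes are named by a rule: per direction the 12 largest called changes with a symbol, no overlap between groups and a mean level of at least 3 (log2 of the mean CPM), up to 4 called and 2 uncalled members per list, all polyamine, DNA methylation and paralog genes and 13 fixed markers, and per assay difference and direction the 6 largest of that level. HNF4A, HHEX, LHX1, NFE2L3, OTX2, ZIC2, PODXL, PRDM14, DPPA4, L1TD1, THY1, APELA, NODAL, BMP2, BMP4, BMPR2, ROR2, SHISA2, CDH1, ITGA6, SNAI1, ZEB1, KRT8, HSPG2, LAMB1, EIF4EBP1, SLC2A1, PKM, ATF4, SLC3A2, MYC, NES, APOB, YBX1, ENSG00000284554.1 and the protein-coding genes of the closing section were named outside it, after their values were seen. Not every gene the rule selects is described. Start sites come from RefSeq promoter sequences (GRCh38.p14), matched for 11093 protein-coding genes tested; a TOP-like run was searched on the gene's strand only.

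Replicate numbers are given in the labels. Replicate differences of hPSC and DE correlated at -0.14 over 14791 genes, so the numbers were not taken as pairs. Alternatives were RLE size factors, no filter, a filter at 1 CPM and 10 counts, DESeq2 1.42.0, a replicate block, each library left out, 4 libraries only, glmTreat against 1 on the log2 scale, protein-coding genes only and counts thinned to a common depth. Library totals, removal of ribosomal RNA genes and exchanged replicate numbers were added after the data were seen.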

Additional observations from a re-analysis of the deposited data

Results flagged for a closer look

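The change between hPSC and DE differed between assays for the following genes, each flagged by the interaction test (edgeR's quasi-likelihood test, adjusted p under 0.05). Against total footprints, WDR82P2 differed by 8.11 and EZRP1 by -7.16 on the log2 scale. In total footprints WDR82P2 had no count in DE and EZRP1 had few in hPSC, so these sizes are uncertain. Both are processed pseudogenes, and their summed values with the parent gene changed by -0.67 (WDR82) and -0.88 (EZR) in FLAG footprints. Against RNA, the difference was -6.35 for EZRP1, -4.16 for PIPSL, -3.26 for JAML, -2.37 for PABIR3 and -1.59 for SENP2. It was 1.95 for WDR72, 2.29 for VASH2, 2.86 for SNORA74A, 5.40 for RNVU1-22 and 6.69 for ENSG00000284554.1. PIPSL and RNVU1-22 are themselves copies of other genes, and the RNA values of PIPSL, JAML and EZRP1 rest on few counts. Groups of 2 libraries are too small for a test of single outlying libraries.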

How the results depend on the processing

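Over 18 other settings, 159 genes named with a FLAG value kept their direction and side of the threshold in 2662 of 2845 comparisons; 143 lost the call, 32 gained one and 8 changed sign, none of them for a called gene. The sign changes were RPL27A (0.20) and EEF2 (0.08) by library totals and, with 1 library left out, CTNNB1 (-0.03 to 0.23), RPL27A (-1.06 to 0.11), SAT1 (-0.25 to 0.28) and PABIR3 (-0.01 to 0.68). By library totals the medians of respiratory chain genes (0.13) and ribosomal protein paralogs (0.15) turned positive, and 2933 genes rose and 804 fell. Tested against a fold of 2 with glmTreat, 1055 genes were called, 601 higher and 454 lower. With 1 library left out, FLAG calls ranged from 1097 to 3144, rises from 549 to 1557 and falls from 548 to 1920. The lone library left in a group is then assumed to vary like the other groups. Total footprints ranged from 73 to 5782 calls. The count that differed between FLAG and total footprints was 214 without a filter, 58 with DESeq2, 0 with the replicate block, and 0 to 11 with 1 library left out; against RNA it was 43 without a filter, 459 with DESeq2, and 2 to 660 with 1 library left out. The replicate block gave 1150 rises and 1380 falls; the numbers are shared labels only, with a correlation of -0.14, and a block with the hPSC numbers exchanged gave 1422 and 1908. Without sBC replicate 2 the share of rises among calls was 56.1% in place of 43.8%. DE replicate 1 was the shallowest of the 4 libraries, which limits low genes most. The causes were not tested.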

Other observations

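Several abundant genes outside the lists were also called. ANXA2, which binds membranes and actin, measured 154 and 192 CPM in hPSC and 1760 and 2060 in DE (3.47 ± 0.26, adjusted p = 0.000489). Its light chain S100A10 measured 57.5 and 74.3 CPM against 561 and 418 (2.89 ± 0.27), and AHNAK, a giant scaffold that binds the pair, 17.4 and 15.5 against 1030 and 1230 (6.10 ± 0.37). PTGR1, a reductase of prostaglandins and leukotrienes, rose from 97 and 94.1 to 1540 and 1350 CPM (3.92 ± 0.29). The changes of ANXA2, S100A10 and AHNAK in RNA were 3.94, 3.15 and 6.99. Prothymosin alpha (PTMA), a small acidic chromatin protein, fell from 13700 and 10900 to 1510 and 2620 CPM (-2.57 ± 0.33, adjusted p = 0.00296), and by 1.42 in RNA. These genes stayed called with each library left out and were chosen after their values were seen.

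Small nucleolar RNAs, which guide modification of ribosomal RNA and are not translated, took 0.574% and 0.938% of counts in hPSC and 1.38% and 1.41% in DE. Of 111 tested, 25 rose and 1 fell (median 2.08; 8 rose without DE replicate 1). In total footprints 49 of 163 rose and 4 fell, and in RNA 4 of 22 rose and 11 fell. Over all genes 9.78% rose and 12.5% fell in FLAG footprints. These shares were 17.2% and 16.9% in total footprints and 38.7% and 36.8% in RNA. A ribosomal RNA gene, RNA5-8SN2, took 4.85% of the counts of DE replicate 1, the largest share of any gene in that library.

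Among the other lists, 7 of 12 secretory granule genes fell and 2 rose (median -1.31), where 12.5% of all genes fell and 9.78% rose. The falls numbered 3 without hPSC replicate 1 and 4 without hPSC replicate 2, with 1 rise in each. Carboxypeptidase CPE measured 4.18 and 1.83 CPM in hPSC and 25.6 and 27.8 in DE (3.16 ± 0.40), and the granin SCG3 30.1 and 18.8 against 2.24 and 2.42 (-3.38 ± 0.33). The filter of the 6-library fit also counted the sBC libraries. Fitted on the 4 libraries compared, 8 granule genes were tested, of which 3 fell and 2 rose (median -1.97). Of 18 antigen presentation genes 5 fell (median -0.53), but 1 to 3 with any 1 library left out, and by library totals 2 fell and 4 rose (median 0.03). Of 24 genes of protein folding in the endoplasmic reticulum, 1 rose and 2 fell, and with 1 library left out 0 or 1 did in each direction. Of 21 histone genes 2 fell, and 1 to 3 with 1 library left out. Of 14 imprinted genes 2 rose and 1 fell, and of 18 long noncoding RNAs 2 rose and 2 fell; without hPSC replicate 1 or 2 the rises numbered 0 in both lists.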
